A study of Arabidopsis thaliana with 30 samples.

Results

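Small heat shock proteins are chaperones that bind unfolding proteins without using ATP and hold them until the ATP-driven HSP70 and HSP100 machines can refold them. In Arabidopsis their genes are controlled by heat shock transcription factors, are weakly transcribed in most unstressed vegetative tissue, and are known for steep induction by heat and for expression during seed maturation. Different members serve different compartments: ATHSP22.0 (AT4G10250, on chromosome 4) encodes a protein of the endoplasmic reticulum, while AT1G53540 (chromosome 1) and AT2G29500 (chromosome 2) encode class I proteins of the cytosol.

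These 3 genes were selected by symbol from the array annotation, in which 13350 genes had a probe set assigned to 1 gene. Each was read by 1 probe set, and all 3 passed the filter on low signals. ATHSP22.0 and AT1G53540 met it only through root explants, where they were high, while AT2G29500 also had enough aerial signals above its level. All 3 genes were selected because their signals were high in early root explants. Their levels across organs and times are therefore given as a description and carry no test.

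The arrays were Affymetrix ATH1 arrays hybridised with RNA from explants of wild-type Columbia-0 plants. The plants were 10-day-old seedlings from solid MS medium, kept at 22 °C under 16 h light and 8 h dark. Root segments or aerial organs were then placed on a medium that induces callus, a mass of proliferating cells from which plants can be regenerated, and were collected at 0, 12, 24, 48 and 96 h. Each of the 10 combinations of organ and time had 3 biological replicates, giving 30 arrays. The labels do not name the components of the medium, the hour of collection or any batch, and no explants kept off the medium were among the samples. Time on the medium, time since cutting and hour of the day therefore cannot be told apart.

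The deposited signals were on a linear scale, and the median signal of an array lay between 139 and 183. The organ labels were checked with marker genes. The summed signal of 6 leaf marker genes of photosynthesis was 284 to 539 on the root arrays and 8797 to 148171 on the aerial arrays. Within the aerial explants it was 103457 to 148171 at 0 h and 8797 to 12201 at 96 h. The summed signal of 5 root marker genes was 1203 to 3893 on root arrays and 156 to 567 on aerial arrays. Singly, the 5 did not all separate the organs. In the limma tests described below, 3 were called higher in root explants at 0 h and none lower, against 31.9% and 30.2% of all probe sets. At 24 h 4 were higher and 1 was lower, against 36.1% and 25.4%. At 96 h 2 were higher and none was lower, against 28.9% and 21.2%. The labels do not give separate cultures or plantings for the replicates, so the p-values reflect the spread between arrays, part of which may be technical.

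ATHSP22.0 gave signals of 929, 565 and 245 in the 3 replicates of root explants at 0 h, and 261, 888 and 791 at 12 h. At 24 h the 3 root values were 70.4, 188 and 162. They were 13.8, 80.2 and 46.9 at 48 h, then 5.0, 3.5 and 23.0 at 96 h. The values at 0 and 12 h overlapped and all lay above every later root value. Of all probe sets tested, 22.2% likewise had every root array of 0 h above every one of 24 h, and 24.0% had every one of 0 h above every one of 96 h.

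In aerial explants the signal of ATHSP22.0 was 38.9, 3.2 and 1.9 at 0 h, then 65.2, 57.9 and 68.5 at 12 h. At 24 h the aerial values were 75.4, 54.5 and 6.2. At 48 h they were 49.0, 10.4 and 32.6, while 96 h gave 55.3, 16.5 and 3.6. No aerial array reached the lowest root value of 0 or 12 h, but the organs overlapped from 24 h on. Every root array exceeded every aerial array for 33.3% of all probe sets at 0 h and for 34.8% at 12 h.

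AT1G53540, a class I gene, gave 2967, 1510 and 600 in root explants at 0 h, and 2223, 9142 and 6408 at 12 h. The root values at 24 h were 511, 1620 and 1812. They were 131, 491 and 445 at 48 h, then 46.3, 86.1 and 68.4 at 96 h. The values at 24 h overlapped those at 0 h and lay below all of those at 12 h, as they did for 13.4% of all probe sets. The falls to 48 h and to 96 h left no overlap either, which held for 11.2% and 12.5% of all probe sets.

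Aerial explants gave signals of AT1G53540 of 12.5, 22.0 and 79.2 at 0 h, then 6.4, 31.7 and 54.7 at 12 h. At 24 h the aerial values were 27.2, 1.9 and 8.7. The values after 48 h were 3.9, 25.0 and 22.0, while 96 h gave 26.8, 9.0 and 23.3. At all 5 times every root array lay above every aerial array of the same time, as it did for 38.8% of all probe sets at 24 h, 36.5% at 48 h and 36.4% at 96 h.

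AT2G29500, the other class I gene, gave 7249, 3735 and 2034 in root explants at 0 h, then 4383, 10258 and 7777 at 12 h. At 24 h the root values were 1001, 2057 and 2281. They were 502, 734 and 688 at 48 h, then 274, 206 and 262 at 96 h. The values at 24 h reached just into the range of 0 h, and each later group lay below the one before it with no overlap. The same held for 11.2% of all probe sets from 24 to 48 h and for 12.5% from 48 to 96 h.

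In aerial explants AT2G29500 gave 58.9, 74.1 and 52.9 at 0 h, then 97.6, 89.5 and 118 at 12 h. At 24 h the aerial values were 62.3, 116 and 131. The values after 48 h were 125, 70.0 and 110, while 96 h gave 94.7, 109 and 163. As for AT1G53540, every root array lay above every aerial array of the same time, at 96 h too. Of all probe sets, 33.3% had this at 0 h, 34.8% at 12 h, 38.8% at 24 h, 36.5% at 48 h and 36.4% at 96 h.

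**Figure D1:**
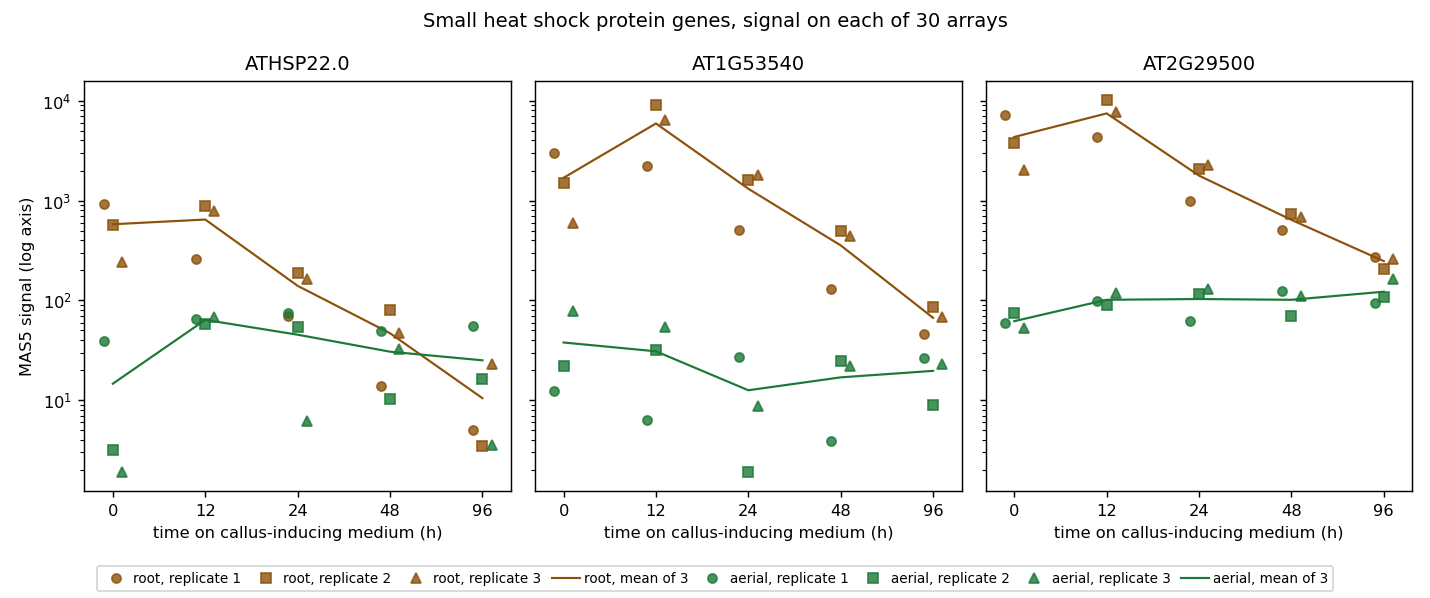
MAS5 signal (log axis) of the 3 small heat shock protein genes against time on callus-inducing medium in hours, with 1 point per array, marker shapes for replicate numbers and lines through the means of 3 replicates. Root explants (brown) are high at 0 and 12 h and fall to 96 h in each panel, while aerial explants (green) stay at or below 163 throughout.

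For all 3 genes the 12 h root group had the highest mean of the 10 groups and the 0 h root group the next highest, and the ranges of these neighbours overlapped. The mean signal of ATHSP22.0 in root explants was 580 ± 343 (SD, n = 3) at 0 h and 646 ± 338 (SD, n = 3) at 12 h. That of AT1G53540 was 1692 ± 1194 before incubation and 5924 ± 3485 after 12 h, and that of AT2G29500 was 4339 ± 2659 and 7473 ± 2949 (SD, n = 3 each). The difference between these means was smaller than the SD of either group for ATHSP22.0.

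Below the early root groups the order of the group means differed between the genes. For AT1G53540 and AT2G29500 the root groups at 24, 48 and 96 h followed in that order and all 5 aerial groups came last, but the 96 h root group of AT1G53540 overlapped the 0 h aerial group. For ATHSP22.0 only the 24 h root group lay above the 12 h aerial group. The 48 h root group of ATHSP22.0 lay among the aerial groups and its 96 h root group had the lowest mean of the 10, with overlap between every pair of neighbours from the 12 h aerial group down.

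Differences were computed on a log2 scale after adding 22 to each signal, which understates the change of genes at low signal. From 0 to 96 h in root explants the difference was -4.08 for ATHSP22.0, -4.02 for AT1G53540 and -3.84 for AT2G29500. No fold is given, since the 96 h signals of ATHSP22.0 were near or under the added 22: its difference was -6.09 with nothing added and -2.63 with 87.4 added. The other 2 genes ranged from -4.42 to -3.29 and from -3.95 to -3.55 over the same settings. In whole explants, fewer cells that make a transcript and less transcript per cell cannot be told apart. From 12 to 24 h the difference was -1.96, -2.12 and -2.06 in the same order of genes. It was -1.27, -1.82 and -1.37 from 24 to 48 h, and -1.01, -1.93 and -1.29 from 48 to 96 h.

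The step from 12 to 24 h was the largest of the 3 for each gene, and in it the genes had differences of similar size. From 0 to 12 h they were further apart, at 0.16 for ATHSP22.0, 1.85 for AT1G53540 and 0.88 for AT2G29500. In aerial explants the differences from 0 to 12 h were 1.37, -0.13 and 0.56. The aerial values of 0 and 12 h did not overlap for ATHSP22.0, at signals up to 68.5, or for AT2G29500. The share of all probe sets with such a separation was not computed. From 0 to 96 h the aerial differences were 0.35, -0.39 and 0.76. AT2G29500 was the one gene of the 3 with every aerial value at 96 h above every aerial value at 0 h, which was so for 29.8% of all probe sets.

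The difference between organs was largest at 12 h for both class I genes and at 0 h for ATHSP22.0. At 12 h the root explants exceeded the aerial explants by 6.70 for AT1G53540 and 5.84 for AT2G29500 on the log2 scale. With nothing added and with 87.4 added they were 7.83 and 5.47 for AT1G53540, whose aerial signals at 12 h were all under 55, and 6.13 and 5.24 for AT2G29500. ATHSP22.0 was higher in root explants by 4 at 0 h, and by 2.79 at 12 h. The value at 0 h was 6.35 with nothing added and 2.58 with 87.4 added. By 96 h the differences were -0.43 for ATHSP22.0, 1.09 for AT1G53540 and 0.92 for AT2G29500.

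The replicates of root explants varied in parallel for the 3 genes. At 0 h replicate 1 was the highest and replicate 3 the lowest array for each of them, with deviations from the group mean of 0.84 to 1.08 and -1.19 to -0.90 on the log2 scale. At 12, 24 and 48 h replicate 1 was the lowest array for each gene, by -1.18 to -0.68, -1.14 to -0.73 and -1.12 to -0.32. At 96 h the genes had no common order of replicates.

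Over the 15 root arrays the deviations from the group means correlated between the genes with Pearson's r of 0.930 for ATHSP22.0 and AT1G53540, 0.904 for ATHSP22.0 and AT2G29500, and 0.908 for the class I pair. Over the 15 aerial arrays the same correlations were -0.185, -0.350 and -0.354. These are descriptions over arrays that the genes share, at signals in the aerial explants that were mostly under 100. Class I genes are similar in sequence, and hybridisation of one gene's transcript to another gene's probes was not tested.

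The other chaperone genes followed the members' order of arrays in part. That name covers 39 tested genes of chaperone and heat-response lists, among them HSA32 and the transcription factors BZIP60, BZIP28 and BZIP17. At 12 h replicate 1 was the lowest root array for 25 of 39 other chaperone genes, against 33.4% of all probe sets tested. The count was 22 of 39 at 24 h, against 32.0%, and 23 of 39 at 48 h, against 30.3%. At 0 h replicate 3 was the lowest for 19 of 39, against 33.1%. The median signal of the replicate 1 arrays was 161, 168 and 181 at 12, 24 and 48 h, against 148 to 160 on the other arrays of those groups, and its part in the order was not tested.

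**Figure D2:**
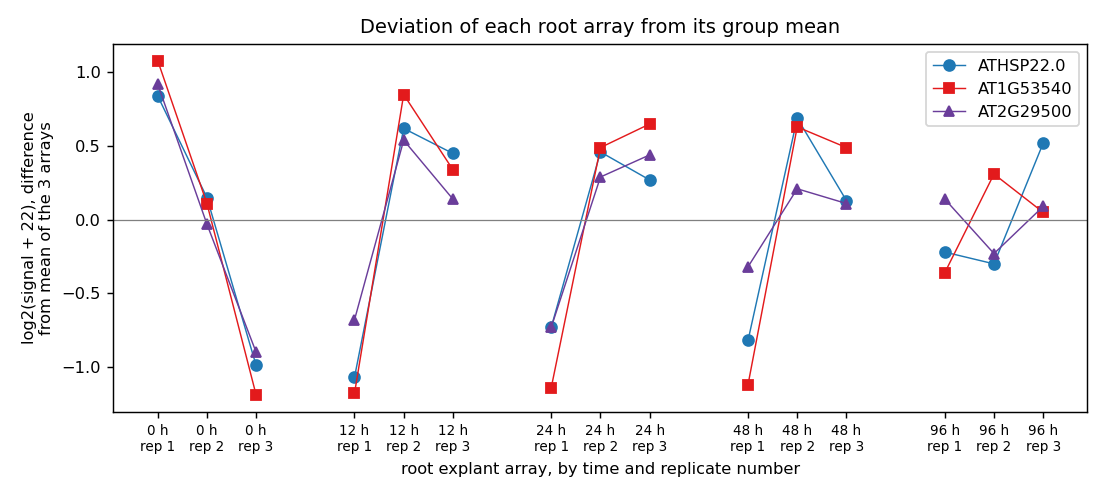
Deviation of each root array from the mean of its 3 replicates, in log2(signal + 22), for the 3 small heat shock protein genes, ordered by time and replicate number along the x axis. The 3 lines move together from 0 to 48 h, with replicate 1 highest at 0 h and lowest at 12, 24 and 48 h, and part at 96 h.

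The pattern that chose the genes can be stated without a fit. Every root array of 0 and 12 h lay above every root array of 48 and 96 h and every aerial array for all 3 genes, and also for 650 of the 16765 probe sets tested, or 3.88%. The lowest early root value and the highest of the other values were 245 and 80.2 for ATHSP22.0, 600 and 491 for AT1G53540, and 2034 and 734 for AT2G29500. The root arrays at 24 h were not part of this comparison, and those of ATHSP22.0, from 70.4 to 188, all lay below its lowest early root value and on both sides of the 80.2.

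The other chaperone genes, in the wide sense given above, were then tested for the same changes. Of 128 listed loci, 39 had a tested probe set of 1 gene, and the members were not among them. No HSP90, HSP100 or heat shock factor gene of the lists was among those 39, so the regulators and the disaggregase of the heat response were not analysed here. The tests used limma over all 30 arrays, and each comparison's p-values were adjusted after Benjamini and Hochberg across its 16765 probe sets.

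In root explants 15 of the 39 genes were higher and 17 were lower at 96 h than at 0 h, where 36.2% of all probe sets were called higher and 21.0% lower. The median log2 difference of the 39 was -0.32, and that of all probe sets was 0.26. At 12 h 13 were higher and 4 lower, against 21.7% and 15.5% of all probe sets. The counts were 15 and 13 at 24 h, against 27.1% and 17.8%, and 17 and 17 at 48 h, against 31.6% and 19.7%.

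The counts at 12 h rested on single arrays. Without root 0 h replicate 2, 8 genes were higher at 12 h. The 4 lower genes became 2 without root 0 h replicate 1. Leaving out root 12 h replicate 1 gave a count of 1, and leaving out root 12 h replicate 2 gave 8. With each array centred on its median, 8 were higher and 6 lower at 12 h, against 16.5% and 19.1% of all probe sets. At 96 h 13 were then higher and 19 lower, against 25.7% and 27.1%, and at 48 h 24.3% of all probe sets were higher and 24.0% lower. That centring moved the median of all probe sets from 0.10 to -0.033 at 12 h and from 0.260 to -0.008 at 96 h, so values against 0 h in root explants are to be read relative to those shifts.

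In aerial explants 16 of the 39 genes were higher at 96 h than at 0 h and 2 were lower, against 26.0% and 18.6% of all probe sets. The 16 became 10 without aerial 96 h replicate 2 and also without replicate 3, and the 2 became 1 without aerial 0 h replicate 1. The change by 96 h in root explants was below that in aerial explants for 17 genes and above it for 3, against 23.0% and 29.0% of all probe sets. Leaving out root 0 h replicate 1, root 96 h replicate 3, aerial 0 h replicate 3 or aerial 96 h replicate 2 reduced the 3 to 1, as did dropping the filter, median centring or a fit without trend, while quantile normalization gave 5. With median centring 19 lay below, against 27.3% of all probe sets below and 23.0% above.

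Before incubation, 23 of the 39 genes were higher in root than in aerial explants and 3 were lower, against 31.9% and 30.2% of all probe sets. At 96 h 10 were higher and 5 were lower, against 28.9% and 21.2%, and the 5 became 3 without aerial 96 h replicate 3. With median centring 8 were higher and 5 lower at 96 h, against 23.4% and 23.7% of all probe sets.

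**Figure D3:**
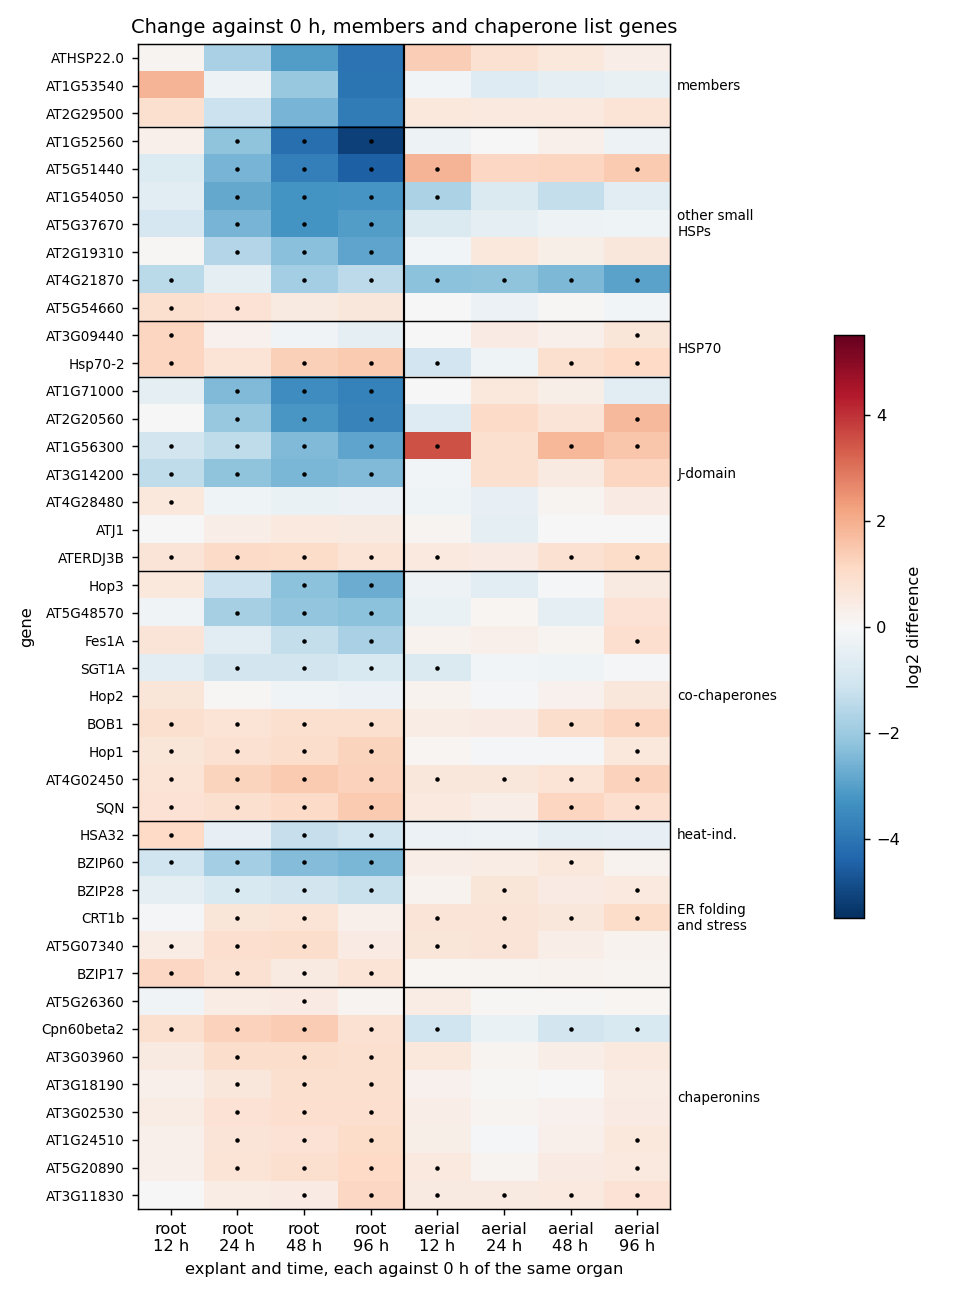
Log2 difference from 0 h of the same organ, by colour. Rows are the 3 small heat shock protein genes (top) and the 39 other chaperone and heat-response genes. There is 1 column per organ and time, and a dot where the adjusted p was under 0.05. The members carry no dots because they were not tested; 6 of the 7 other small heat shock protein genes and part of the J-domain and co-chaperone genes are blue in the late root columns, and the chaperonin genes are pale red.

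At 96 h against 0 h in root explants, 6 of the 7 other small heat shock protein genes were lower and none was higher. Of all probe sets, 21.0% were called lower and 36.2% higher. The median difference of the 7 was -3.08, against 0.26 for all probe sets. At 12 h 1 of the 7 was higher and 1 was lower, against 21.7% and 15.5% of all probe sets. Their median at 12 h was -0.61, against 0.10 for all probe sets. AT1G52560, which encodes a mitochondrial small heat shock protein, gave 957 to 3108 on the root arrays at 0 h and 24.8 to 37.6 at 96 h. Its aerial signals were all between 2.2 and 28.1. It fell by 5.15 ± 0.56 (SE, adjusted p = 9.37e-09) in root explants and was the gene most like the 3 members over the 10 groups.

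AT5G51440, for another mitochondrial protein of the family, gave 2139 to 4181 on the root arrays at 0 h and 84.6 to 166 at 96 h, and fell by 4.48 ± 0.516 (SE, adjusted p = 2.6e-08). It rose in aerial explants by 1.44 ± 0.516 (SE, adjusted p = 0.0235) at 96 h. That aerial rise was 0.88 (adjusted p = 0.201) without aerial 0 h replicate 1, 1.11 (adjusted p = 0.125) without aerial 96 h replicate 2 and 1.01 (adjusted p = 0.158) without aerial 96 h replicate 3. It was 2.2 (adjusted p = 0.000671) without aerial 96 h replicate 1. The root change lay below the aerial change by -5.92 ± 0.73 (SE, adjusted p = 1.1e-07), or -6.68 without aerial 96 h replicate 1.

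AT1G54050, for a class III protein known from the nucleus, had a mean signal of 1987 ± 1106 (SD, n = 3) in root explants at 0 h and 175 ± 40.2 at 96 h. It fell by 3.23 ± 0.537 (SE, adjusted p = 9.92e-06). AT5G37670, for a peroxisomal member, went from 505 ± 244 to 37.0 ± 14.0 (SD, n = 3) and fell by 3.08 ± 0.438 (SE, adjusted p = 9.1e-07). Both genes had already fallen at 24 h, when their root arrays, at 186 to 282 and 53.5 to 70.4, lay below all of their 0 h root arrays.

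The remaining 3 small heat shock protein genes were the least like the members on their list, by profile over the 10 groups. AT2G19310 fell in root explants by 2.88 ± 0.332 (SE, adjusted p = 2.66e-08), from 1131 ± 548 to 131 ± 55.8 (SD, n = 3). Its aerial signal was 888 ± 308 at 0 h and 1336 ± 212 at 96 h, and the organs did not differ past the threshold at 0 h (0.30, adjusted p = 0.454). At 96 h it was lower in root than in aerial explants by -3.21 (adjusted p = 5.77e-09).

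AT4G21870 had the opposite organ pattern, with 1391 to 1767 in aerial explants at 0 h and 48.5 to 90.5 in root explants, a log2 difference of -4.02 (adjusted p = 5.06e-09). It fell by 2.93 ± 0.444 (SE, adjusted p = 3.3e-06) in aerial explants by 96 h. Its root fall of 1.45 (adjusted p = 0.00664) was at signals under 91 and was -0.68 (adjusted p = 0.0838) with the larger added value of 87.4. AT5G54660 was 217 ± 33.6 in root explants at 0 h and 365 ± 137 at 96 h (SD, n = 3), with a difference of 0.64 (adjusted p = 0.0823).

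At 0 h 4 of these 7 genes were higher in root than in aerial explants and 1 was lower. The shares of all probe sets called were 31.9% higher and 30.2% lower. The log2 difference was 5.71 for AT1G52560 (adjusted p = 4.83e-10), 5.52 for AT5G51440 (adjusted p = 1.83e-10), 2.48 for AT1G54050 (adjusted p = 0.000205) and 2.15 for AT5G37670 (adjusted p = 9.72e-05). The root change by 96 h was below the aerial change for 5 of the 7 and above it for 1. Among all probe sets 23.0% lay below and 29.0% above. The 1 above was AT4G21870 (1.49, adjusted p = 0.0484), whose call was lost in several settings, among them no added value (0.14).

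**Figure D4:**
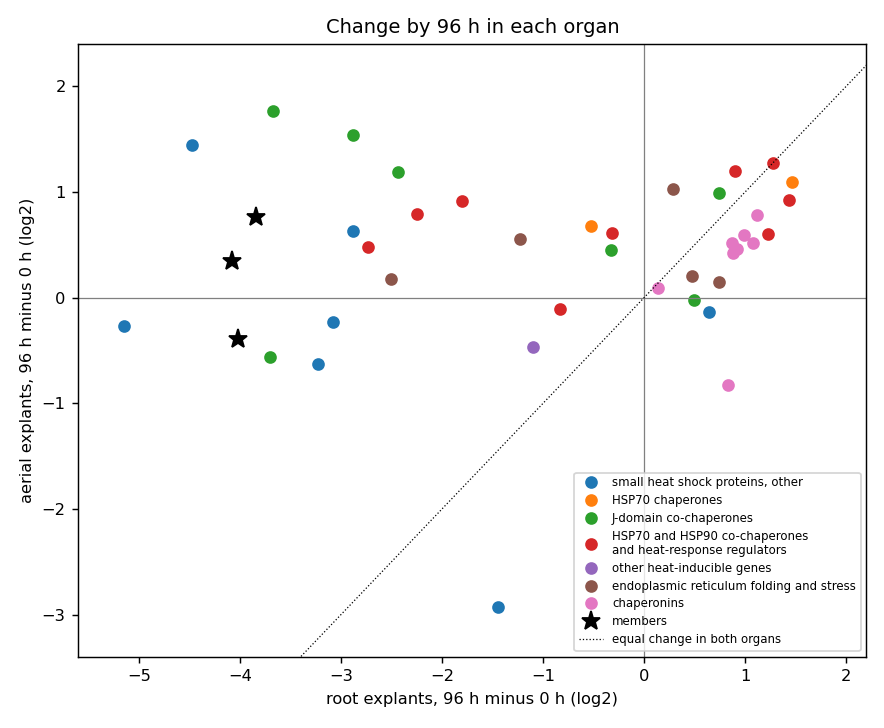
Log2 difference between 96 and 0 h in root explants (x axis) against that in aerial explants (y axis), 1 point per gene, coloured by gene list, with stars for the 3 members and a dotted line where the change would be equal in both organs. The members lie at -4.08 to -3.84 in root and -0.39 to 0.76 in aerial explants; AT4G21870 is the point at the bottom, and the chaperonin genes lie to the right of 0, with Cpn60beta2 alone among them below 0 on the y axis.

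HSP70 proteins take over substrates held by small heat shock proteins and refold them with ATP. Of 16 listed HSP70 genes 2 were tested. Both rose in root explants at 12 h, when 21.7% of all probe sets were called higher. Neither fell past the threshold by 96 h, when 21.0% of all probe sets were called lower. AT3G09440 went from 7508 to 16729 in mean signal and rose by 1.17 ± 0.238 (SE, adjusted p = 0.000291). At 96 h it differed from 0 h by -0.53 (adjusted p = 0.059). Hsp70-2 rose by 1.2 ± 0.316 (SE, adjusted p = 0.0034) at 12 h and was higher by 1.46 (adjusted p = 0.000282) at 96 h.

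J-domain proteins deliver substrates to HSP70 and start its ATP cycle. Of 7 tested, 4 were lower in root explants at 96 h than at 0 h and 1 was higher, against 21.0% and 36.2% of all probe sets. AT1G71000 fell by 3.70 ± 0.549 (SE, adjusted p = 1.79e-06), AT2G20560 by 3.67 ± 0.573 (adjusted p = 3.82e-06) and AT1G56300 by 2.88 ± 0.357 (adjusted p = 9.5e-08). AT1G56300 also rose by 3.51 in aerial explants at 12 h (adjusted p = 1.87e-08), when 13.5% of all probe sets were called higher and 13.8% lower there. The members differed by 1.37, -0.13 and 0.56 in the same comparison. ATERDJ3B, the endoplasmic reticulum J-domain protein of the list, rose by 0.74 ± 0.19 in root explants (SE, adjusted p = 0.00154).

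The co-chaperones of HSP70 and HSP90 moved both ways in root explants by 96 h, 4 of 9 higher and 4 lower, against 36.2% and 21.0% of all probe sets. Hop3, which links HSP70 to HSP90, fell by 2.73 ± 0.548 (SE, adjusted p = 0.000117). Its paralogue Hop1 rose by 1.23 ± 0.184 (SE, adjusted p = 1.97e-06). Fes1A, an HSP70-associated factor, fell by 1.80 ± 0.333 (SE, adjusted p = 4.18e-05).

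AT5G48570, which encodes the immunophilin ROF2, fell by 2.25 ± 0.473 (SE, adjusted p = 0.000198), and by 1.66 (adjusted p = 0.00482) without root 0 h replicate 1. SQN, a cyclophilin that binds HSP90, rose by 1.43 ± 0.278 (SE, adjusted p = 7.68e-05), and AT4G02450, of the HSP90 co-chaperone p23 type, rose by 1.28 ± 0.159 (SE, adjusted p = 1.03e-07). Hop3, Fes1A and AT5G48570 were among the 8 of the 39 genes whose early root arrays all lay above the root arrays of 48 and 96 h and the aerial arrays, against 3.88% of all probe sets. The others were AT1G71000, AT2G20560, AT1G52560, AT5G51440 and BZIP60.

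HSA32, a heat-stress-associated protein that prolongs acquired heat tolerance, was the single tested gene of the other heat-inducible list. It rose by 1.11 ± 0.391 (SE, adjusted p = 0.0267) at 12 h in root explants, a call lost with quantile normalization (0.96) or median centring (0.97). It was also lost without root 0 h replicate 3 (0.59, adjusted p = 0.255), root 12 h replicate 2 (0.74, adjusted p = 0.172), root 12 h replicate 3 (0.93, adjusted p = 0.111) or root 0 h replicate 2 (adjusted p = 0.0596). At 96 h it was below 0 h by -1.10 ± 0.391 (SE, adjusted p = 0.0174). Leaving out root 0 h replicate 1 gave -0.59 at 96 h (adjusted p = 0.209), and leaving out root 96 h replicate 3 gave -0.92 (adjusted p = 0.0819).

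ATHSP22.0 resides in the endoplasmic reticulum, so folding genes of that compartment were set beside it. In root explants 2 of the 5 tested were lower and 2 were higher at 96 h, against 21.0% and 36.2% of all probe sets. BZIP60, a transcription factor of the unfolded protein response, went from a mean signal of 5653 to 999 and fell by 2.51 ± 0.191 (SE, adjusted p = 9.27e-12). BZIP28, another factor of that response, fell by 1.23 ± 0.22 (SE, adjusted p = 2.44e-05), while the related BZIP17 rose by 0.74 ± 0.193 (SE, adjusted p = 0.00171).

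The 2 chaperones of the endoplasmic reticulum on the list differed more from 0 h in the middle of the root course than at its end. CRT1b, a calreticulin, rose by 0.68 (adjusted p = 0.0047) at 24 h and 0.75 (adjusted p = 0.00165) at 48 h, and its 0.29 at 96 h was not called. In aerial explants it rose by 1.03 at 96 h (adjusted p = 6.08e-05). AT5G07340, of the calnexin family, rose in root explants by 0.94 (adjusted p = 2.16e-05) at 24 h and 0.97 (adjusted p = 1.02e-05) at 48 h. Its 0.47 at 96 h (adjusted p = 0.0135) lost the call with quantile normalization (0.23), with median centring (0.20) or without root 96 h replicate 2 (0.39).

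Chaperonins are barrel-shaped folding machines that act on newly made proteins. None of the 8 tested fell in root explants by 96 h and 7 rose, against 21.0% and 36.2% of all probe sets, with a median of 0.90. AT3G11830, a subunit of the cytosolic chaperonin, rose by 1.12 ± 0.174 (SE, adjusted p = 3.4e-06). AT5G20890 rose by 1.08 ± 0.188 (adjusted p = 1.7e-05) and AT1G24510 by 0.99 ± 0.168 (adjusted p = 1.31e-05), both subunits of the same complex. The list thus ran opposite to the small heat shock proteins in the same arrays, and no test compared the lists.

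Likeness to the members was measured as Pearson's r between each gene and the mean of the 3 members over the 10 group means of log2 values. The 10 most alike of 9185 genes ranked had r from 0.974 to 0.987. In order they were AT1G52560, AT3G24670, AT4G18950, AT1G80450, AT2G41970, AT1G62840, AT2G47540, AT2G34910, AT1G74770 and PUB22, which encodes a U-box ubiquitin ligase. Of these, AT1G52560 alone is on the chaperone lists.

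A high r did not mean a change of like size. The difference between 96 and 0 h in root explants ranged among the 10 from -5.15 for AT1G52560 to -1.12 for AT2G41970, against -4.08 to -3.84 for the members. PUB22 differed by -3.31 and AT2G34910 by -3.34. Of the other chaperone genes, Fes1A ranked 18, Hop3 ranked 23 and AT5G51440 ranked 56. AT1G54050 ranked 519 with r of 0.818, AT5G37670 ranked 1110 with r of 0.712 and AT5G54660 ranked 1685 with r of 0.617. AT2G19310 ranked 4732 with r of 0.023 and AT4G21870 ranked 7345 with r of -0.603, so genes of one family stood far apart in the ranking.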

How the data were processed

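The deposited series table holds MAS5 signal intensity per probe set on a linear scale, with each array scaled to a 2% trimmed mean of 500, per the submitters' processing notes and the labels. The MAS5 version was not stated there. Per the labels' protocols, about 5 µg of RNA was used for biotin-labelled cRNA.

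Of 22810 probe sets, 64 controls were left out, and 16765 with at least 3 arrays above the 40th percentile of all values (87.4) were tested. Values were log2(signal + 22), 22 being the 20th percentile. One limma 3.58.1 model (R 4.3.3, lmFit and eBayes with trend) covered all 30 arrays and 10 groups, and p-values were adjusted by the Benjamini-Hochberg method over all tested probe sets within a comparison, with a threshold of 0.05. Steps were tested on simulated data. The number of arrays limits the precision.

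GEO's platform annotation of 2016 gave 1 gene for 13513 probe sets and several for 503, and those with several were not named. The probe sets of the members are 255811_at, 260978_at and 266294_at. The members and gene lists were chosen with earlier results of these data known. Named are the members; all tested small heat shock protein, HSP70, HSP90, HSP100 and heat shock factor genes; up to 3 genes each way per list with the largest root change at 96 h; and the 10 genes most like the members. Cpn60beta2 was named after its values were seen. Alternatives were other added values, no filter, quantile normalization, median centring, no trend, the replicate number as a block, and leaving out each array.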

Additional observations from a re-analysis of the deposited data

Results flagged for a closer look

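The following results were set apart because the change from 0 to 96 h differed between root and aerial explants, tested as the difference of the changes in the fit over all 30 arrays; each value is the root change minus the aerial change on the log2 scale. Among small heat shock protein genes it was -5.92 for AT5G51440, -4.88 for AT1G52560, -3.50 for AT2G19310, -2.86 for AT5G37670, -2.60 for AT1G54050 and 1.49 for AT4G21870. Among J-domain genes it was -5.45 for AT2G20560, -4.42 for AT1G56300 and -3.14 for AT1G71000. Among HSP70 genes and co-chaperones it was -3.21 for Hop3, -3.04 for AT5G48570, -2.71 for Fes1A, -1.21 for AT3G09440 and 0.63 for Hop1. Among genes of the endoplasmic reticulum it was -2.69 for BZIP60, -1.79 for BZIP28 and -0.74 for CRT1b.

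The differences for Hop1, CRT1b and AT4G21870 lost their calls under other settings. For AT4G21870 the value was 0.14 with no added value. For Hop1 it was 0.40 with median centring, and for CRT1b it was -0.57 with quantile normalization. For Hop3 it was -2.48 without aerial 0 h replicate 2 and -3.81 without aerial 0 h replicate 3. For AT5G51440 it was -6.68 without aerial 96 h replicate 1, and for AT2G20560 it was -6.07 without aerial 0 h replicate 3.

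AT2G29500 differed by -4.60 and is given here because all 3 root arrays at 96 h lay below all root arrays at 0 h while all 3 aerial arrays at 96 h lay above all aerial arrays at 0 h. The aerial part of that value was 0.76. The same difference was -4.43 for ATHSP22.0 and -3.63 for AT1G53540, whose aerial arrays at 0 and 96 h overlapped. AT2G29500 is therefore not set apart by the size of its difference. The root part of its pattern held for 24.0% of all probe sets and the aerial part for 29.8%. The share with both was not computed. None of the 3 differences was tested, since the genes were chosen for their levels.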

How the results depend on the processing

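The members' differences in root explants from 0 to 96 h and between organs at 0 and 12 h kept their sign under the alternatives. Their other differences, some of them small, are not covered by this statement. No called value of a single listed gene changed sign. Median centring turned the balance of calls over all probe sets in several comparisons. These were root at 12 and 96 h, aerial at 12 and 24 h, root against aerial at 96 h and the difference of the changes. With no added value below a floor of 1, the difference of ATHSP22.0 in root explants from 0 to 96 h was -6.09, that between organs at 0 h was 6.35, and that of AT1G53540 between organs at 12 h was 7.83. With 87.4 added, the values were -2.63 and 2.58 for ATHSP22.0. The organ differences at 0 and 12 h were then 3.62 and 5.47 for AT1G53540, and 4.71 and 5.24 for AT2G29500. Signals under about 100 thus set the size of these differences. Leaving out each array in turn, the root difference from 0 to 96 h ranged from -4.57 to -3.65 for ATHSP22.0, -4.61 to -3.48 for AT1G53540 and -4.29 to -3.38 for AT2G29500. The difference between organs at 0 h ranged from 3.57 to 4.49, 4.19 to 5.32 and 5.06 to 5.97, and at 12 h from 2.48 to 3.33, 6.28 to 7.29 and 5.57 to 6.19.

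The number of the 39 chaperone genes called in root explants at 12 h was 17. Leaving out each array in turn, it ranged from 11 to 19, the lowest without root 0 h replicate 2. The ranges on leaving out arrays were 31 to 33 in root explants at 96 h and 12 to 21 in aerial explants at 96 h. They were 22 to 26 between organs at 0 h, 12 to 15 between organs at 96 h, and 17 to 21 for the difference of the changes. Some other settings fell outside these ranges, among them quantile normalization with 22 for the difference of the changes. Of 197 called values of single genes, 34 lost the call under at least 1 alternative, and 150 of 2681 refits lost a call, 108 of them by leaving out an array. The causes were not tested.

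The labels give replicate numbers no shared source, so the numbers were not taken to pair the samples. The correlation of deviations from the group means was -0.117 to 0.389 over 135 same-numbered pairs (median 0.033), and -0.338 to 0.165 over 270 others (median -0.024). By mean correlation 24 of 30 arrays were most like the other arrays of their own number, a hint of pairing from the data that the design does not give. With the number as a replicate block, 18, 34 and 20 of the 39 genes were called in root explants at 12 and 96 h and aerial explants at 96 h, and 27, 16 and 21 between organs at 0 h, between organs at 96 h and for the difference of the changes, against 17, 32, 18, 26, 15 and 20 without it. It took no call from a single gene.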

Other observations

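Genes known to respond to oxidative stress were listed beside the chaperones, and 3 of 13 had a tested probe set of 1 gene. STZ, a zinc-finger factor induced by several stresses, had a mean signal of 18520 ± 2301 (SD, n = 3) in root explants at 0 h, 2634 ± 440 at 12 h and 882 ± 458 at 96 h. It fell by 2.81 ± 0.635 (SE, adjusted p = 0.000831) from 0 to 12 h, the interval over which the members' root ranges overlapped. AT2G21640, a marker gene of oxidative stress, fell by 3.17 ± 0.401 (SE, adjusted p = 1.34e-07) in root explants by 96 h. Its root arrays of 0 and 12 h all lay above those of 48 and 96 h and above the aerial arrays, as did those of the members. CCS, a copper chaperone for superoxide dismutase, was 53.8 ± 63.9 in root explants at 0 h and 914 ± 34.8 at 96 h (SD, n = 3), and rose by 3.94 ± 0.372 (SE, adjusted p = 6.46e-10), or 4.59 without root 0 h replicate 1, whose signal was 128 against 16.4 and 17.4. In aerial explants CCS fell by 1.60 (adjusted p = 0.000792).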
